A study of Mus musculus with 6 samples.

Results

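Nucleoporins, the proteins that build the nuclear pore complex, and the importins, transportins and exportins that carry cargo through it were examined for E2F1 binding in mouse fibroblasts. The genes were chosen by symbol alone, as the protein-coding genes named Nup, Kpna, Kpnb1, Xpo, Ipo or Tnpo with a number, which gave 43 genes of 21887 in the RefSeq table of assembly GRCm38.p6. The rule itself uses no binding value, but it was chosen with earlier results of these data known. Genes of the pore and of transport with other names, such as Tpr, Ranbp2 or Ran, fall outside that rule and are described as related genes further on.

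The nuclear pore complex is a ring-shaped channel through the nuclear envelope. Its Y-shaped scaffold complexes and its inner ring hold the channel, phenylalanine-glycine-rich nucleoporins fill it as a selective barrier, and further nucleoporins form the cytoplasmic face and the nuclear basket. Import receptors of the importin beta family bring proteins into the nucleus, either directly or with importin alpha as an adaptor for the classical localization signal, and exportins carry proteins and RNA out, with the small GTPase Ran giving the direction. E2F1 is a transcription factor best known for activating genes of DNA replication and the G1/S transition.

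Chromatin immunoprecipitation followed by sequencing (ChIP-seq) had been done in NIH/3T3, a long-established fibroblast line from mouse embryos. The sources used here do not give the antibody, so that it was directed at E2F1 is an assumption. The E2F1 group was made of 2 libraries from cells with a stably integrated, doxycycline-inducible E2F1 construct, and the EV group of 2 libraries from cells with an empty vector in the same inducible design. Both groups were kept for 48 h in 0.25% serum, which stops growth, and were then given doxycycline for 12 h. The protocol in the labels gives 500 ng/ml doxycycline, whereas names inside the peak lists carry another dose, so the dose is uncertain. Induced E2F1 comes from the construct, so these lists describe binding after forced expression in cells that had been starved; their cell cycle state at harvest was not measured here. The labels do not say whether the construct encodes mouse or human E2F1, whether a line was a single clone, or whether the replicates were separate cultures. Input DNA of EV cells, labelled as 2 more samples, was not analysed here. The data are lists of peaks, which hold no expression values, so the fibroblast identity was not checked against marker genes.

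The lists held 7836 and 8027 peaks in E2F1 replicates 1 and 2, and 70 and 358 peaks in EV replicates 1 and 2. Library totals were not used, so the depth of the libraries is not known. The lowest local background over the listed peaks was 1.85 and 1.86 reads in the E2F1 libraries and 2.20 and 1.18 reads in the EV libraries. These values do not measure depth. Every listed peak had a −log10 p of at least 10, so a gene without a peak may still have had weaker signal. A gene was counted as having a peak when a peak lay inside it or within 1000 bp of it, and its value was that of its highest-fold peak.

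Most genes of the pore and of transport had an E2F1 peak. In both E2F1 lists a peak was present at 35 of 43 members, or 81.4% (Wilson 95% interval 67.4 to 90.3), against 34.4% of all protein-coding genes. In replicate 1 the members with a peak numbered 35, against 36.9% of all genes, and in replicate 2 they numbered 36, or 83.7%, against 38.2% of all genes. The empty-vector lists held almost none. In EV replicate 1, 0 of 43 members had a peak (Wilson 95% interval 0 to 8.20), against 0.0366% of all genes. In EV replicate 2, 1 member, Nup205, had one, against 0.407% of all genes. Both E2F1 libraries thus had more members with a peak than either EV library, but with 2 libraries against 2 the smallest two-sided p of an exact permutation test is 0.333. These intervals cover counting error only.

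The members differ from the average gene in properties that bear on such a share. Their median length was 50597 bp, against 17169 bp for all genes, which makes the searched region longer. With only peaks within 1000 bp of the gene start counted, or of either boundary for the genes without a listed strand, 74.4% of members and 32.1% of all genes had a peak in both lists. A promoter sequence was listed for 34 of the members, and 32 of these had a CpG-rich promoter (at least 50% G and C and an observed-to-expected CpG ratio of at least 0.6), or 94.1% against 48.3% of all genes with a listed promoter. Within the genes with a CpG-rich promoter, 27 of 32 members, or 84.4% (68.2 to 93.1), had a peak in both lists, against 61.8% of all such genes. Of the 2 members with other promoters only, Nup160 had a peak in both lists and Kpna7 had none, against 10.3% of all genes of that kind. How much of the members' share goes with their CpG content or length was not tested beyond these values.

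**Figure D1:**
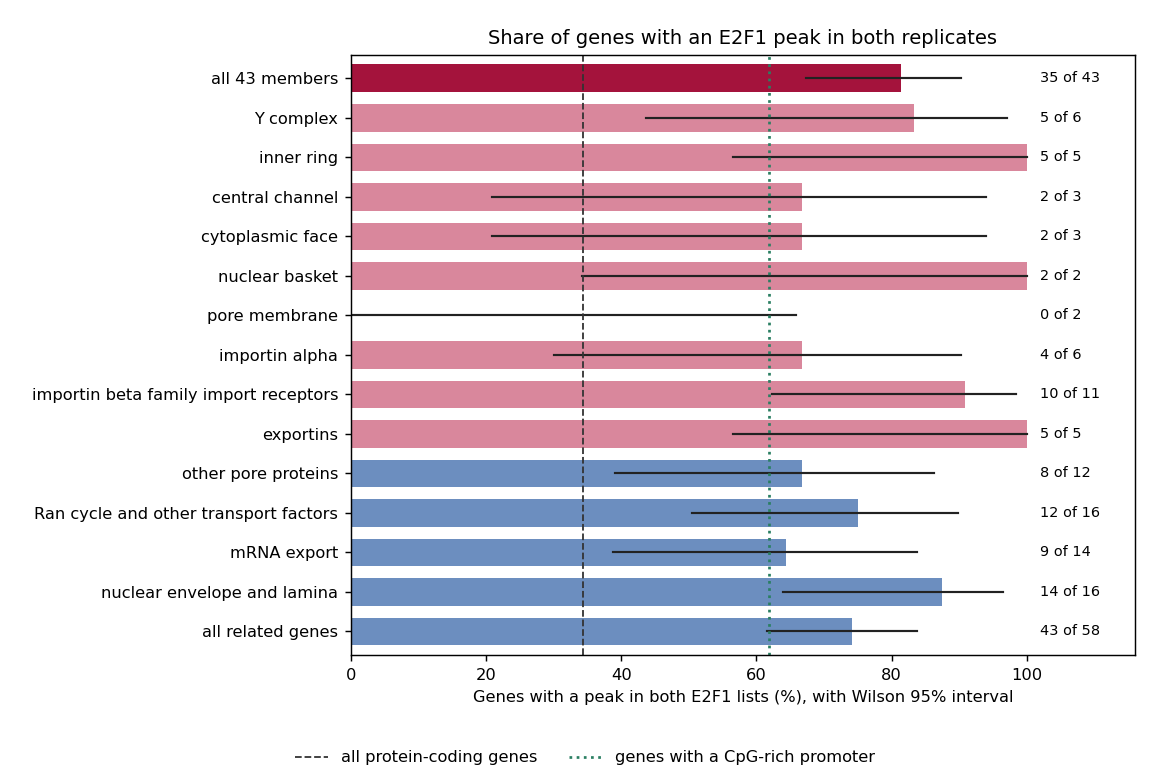
Percentage of genes with a peak in both E2F1 lists (horizontal axis), for all 43 members (dark red), for each role among them (light red) and for lists of related genes (blue). Black lines are Wilson 95% intervals, the dashed line marks all protein-coding genes at 34.4% and the dotted line genes with a CpG-rich promoter at 61.8%; the bar of all members ends at 81.4%, and the pore membrane genes have no bar because 0 of 2 had a peak.

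The median fold of the bound members was above that of all bound genes, and single members lay on both sides of it. Over the 35 members with a peak in both lists, the median fold enrichment over local background was 13.2 in replicate 1 and 17.4 in replicate 2, against 10.2 and 13.1 for the 7537 protein-coding genes with peaks in both lists. The members' folds ran from 5.15 (Ipo8) to 35.9 (Ipo5) in replicate 1 and from 6.69 (Ipo8) to 58.9 (Nup205) in replicate 2. A peak's place in its list was expressed as its rank by fold in percent of the list, so that a low percentile is a strong peak. The members' median of the mean percentile over both lists was 28.8, against 43.9 for all genes with peaks, and 7 members (20.0%) were on the weaker side of the lists (mean percentile above 50), against 43.1% of all bound genes. In the top 10% by fold of both lists were 3 members, Nup205, Nup62 and Ipo9, or 6.98% of the 43 (2.40 to 18.6) against 2.34% of all genes. Counted over bound genes alone, these were 3 of 35 members and 513 of 7537 genes.

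The promoters show the sequence setting of these peaks. Each is given as RefSeq lists it for GRCm38.p6, 5′ to 3′ on the gene's strand, from 250 bases before the start to the 50 bases that begin at the start, in lower case with E2F motif letters in capitals. Position +1 is the start and −1 the base before it, so no position is 0. The letters searched on both strands were TTTCCCGC, TTTCGCGC, TTTGCCGC and TTTGGCGC (8-letter motifs) and the 7-letter core of each, the same letters without the leading T (TTCCCGC for the first of them), so each 8-letter match is also a core match. The first 4 promoters are those of the bound members with a match whose highest-fold peaks had the lowest mean percentiles, up to 50.4 for Nup133. For Tnpo1 the highest-fold peak in replicate 1 was at another start. The peak at its printed promoter had folds of 8.93 and 22.0. Ipo7 (chr7:110018065-110018364, plus strand) has the only 8-letter match among the 28 bound members with a listed promoter, TTTCGCGC at +3 to +10, between a core TTGGCGC at −15 to −9 and a core TTGCCGC at +14 to +20. Nup188 (chr2:30286166-30286465, plus strand) has TTCGCGC on the opposite strand at +16 to +22, Tnpo1 (chr13:98926335-98926634, minus strand) has TTCCCGC at −24 to −18, and Nup133 (chr8:123949216-123949515, minus strand) has TTCCCGC at +2 to +8. Nup210 (chr6:91116777-91117076, minus strand) and Nup37 (chr10:88146742-88147041, plus strand) are shown because neither list held a peak there. Nup205 (chr6:35177366-35177665, plus strand) is shown as the member with the strongest peaks, chosen after its values were seen.
Ipo7: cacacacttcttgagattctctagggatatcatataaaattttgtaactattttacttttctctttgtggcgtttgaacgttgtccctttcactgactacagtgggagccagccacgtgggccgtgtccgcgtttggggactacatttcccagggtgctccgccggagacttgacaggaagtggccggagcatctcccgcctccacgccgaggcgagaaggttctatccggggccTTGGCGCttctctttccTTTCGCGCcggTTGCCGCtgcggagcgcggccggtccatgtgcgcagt
Nup188: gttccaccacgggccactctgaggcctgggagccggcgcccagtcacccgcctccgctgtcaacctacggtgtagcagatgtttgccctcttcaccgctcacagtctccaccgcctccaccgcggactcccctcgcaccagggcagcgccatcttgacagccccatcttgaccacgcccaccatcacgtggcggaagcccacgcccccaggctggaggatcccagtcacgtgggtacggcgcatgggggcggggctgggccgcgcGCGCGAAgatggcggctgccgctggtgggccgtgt
Tnpo1: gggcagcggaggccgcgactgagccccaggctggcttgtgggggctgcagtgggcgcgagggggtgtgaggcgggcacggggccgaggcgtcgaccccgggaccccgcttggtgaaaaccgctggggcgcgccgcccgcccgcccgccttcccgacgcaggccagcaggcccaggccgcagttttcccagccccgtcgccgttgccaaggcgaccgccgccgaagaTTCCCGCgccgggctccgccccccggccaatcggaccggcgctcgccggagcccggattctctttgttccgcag
Nup133: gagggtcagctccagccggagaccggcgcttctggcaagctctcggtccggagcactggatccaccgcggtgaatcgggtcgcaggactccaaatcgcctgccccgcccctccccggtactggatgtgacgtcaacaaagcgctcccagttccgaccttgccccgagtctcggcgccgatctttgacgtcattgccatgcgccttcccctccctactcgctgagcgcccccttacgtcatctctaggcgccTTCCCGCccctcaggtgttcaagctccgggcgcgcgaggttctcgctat
Nup210: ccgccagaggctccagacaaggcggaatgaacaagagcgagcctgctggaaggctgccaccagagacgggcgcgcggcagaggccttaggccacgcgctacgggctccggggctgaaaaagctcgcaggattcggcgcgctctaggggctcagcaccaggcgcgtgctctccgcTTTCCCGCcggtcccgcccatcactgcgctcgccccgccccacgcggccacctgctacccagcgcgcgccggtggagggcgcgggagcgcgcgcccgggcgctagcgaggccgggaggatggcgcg
Nup37: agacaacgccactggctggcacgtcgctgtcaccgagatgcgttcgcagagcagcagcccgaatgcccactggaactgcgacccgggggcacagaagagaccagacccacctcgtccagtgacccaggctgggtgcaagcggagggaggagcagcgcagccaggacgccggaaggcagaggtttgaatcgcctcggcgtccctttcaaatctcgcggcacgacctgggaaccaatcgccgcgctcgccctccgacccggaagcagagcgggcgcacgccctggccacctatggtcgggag
Nup205: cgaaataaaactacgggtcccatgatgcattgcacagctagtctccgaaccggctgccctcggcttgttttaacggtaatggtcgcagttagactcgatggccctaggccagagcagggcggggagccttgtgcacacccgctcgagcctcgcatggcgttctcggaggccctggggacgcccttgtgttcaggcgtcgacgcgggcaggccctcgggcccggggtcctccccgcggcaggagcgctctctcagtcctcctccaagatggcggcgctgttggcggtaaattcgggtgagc

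Most of the bound members with a listed promoter carried none of these letters in the window. Of the 41 promoters listed for the members, 2 held an 8-letter motif (Ipo7 and Nup210), or 4.88% against 2.85% of all 21263 promoters. Counted over bound genes with a listed promoter, the direction was the reverse: 1 of 28 members (3.57%) held one, against 6.19% of all such genes. Nup210, with TTTCCCGC at −76 to −69, had no peak in either list, whereas Nup205, with the strongest peaks, held neither an 8-letter motif nor a core. A core was present in 6 promoters, or 14.6% against 12.1% of all promoters. Among genes with peaks in both lists, 5 of 28 members (17.9%) had a core, against 24.1% of all such genes. The remaining member with a core was Nup107, with TTCCCGC on the opposite strand at −52 to −46 and at +21 to +27. A match is a description of letters, not a binding site, and the absence of a match says only that these letters are not in this window.

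Most of the other promoter motifs searched were more frequent in these promoters than an E2F core, but these motifs are also shorter. Shorter motifs occur more often by chance, and the same order held over all promoters, 12.1% of which had an E2F core. The comparison with E2F letters therefore does not show which factor these promoters favour. The CCAAT box (CCAAT) was in 56.1% of the members' promoters, against 38.2% of all, and the GC box (GGGCGG), the letters bound by Sp1, in 63.4% against 46.2%. An ETS motif (CCGGAA) was in 29.3% against 18.7%, and the NRF1 letters GCGCATGC were in 9.76% against 3.52%. All were searched on both strands. Among genes with peaks in both lists the GC box was found in 78.6% of members and 75.7% of all genes, the CCAAT box in 57.1% and 42.4%, and the ETS letters in 7 of 28 members and 33.7% of all genes. The part of the members' CpG content in these shares was not tested.

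Among the pore scaffold genes, the inner ring was bound throughout. Its 5 members, Nup205, Nup188, Nup155, Nup93 and Nup35, had peaks in both lists, with median folds of 16.1 and 18.8 in replicates 1 and 2. Nup205, a large inner-ring scaffold protein, had the strongest peaks of all members by mean percentile (4.83). Its peak lay at chr6:35177365-35178296 in replicate 1, with a fold of 22.6 (95% counting interval 19.6 to 25.8), a pileup of 213 reads at the summit and rank 646. In replicate 2 it lay at chr6:35177301-35178477, with a fold of 58.9 (52.0 to 66.4), a pileup of 263 reads and rank 114. The summits were 53 and 82 bp downstream of the start of the gene, which spans chr6:35177616-35247599. The fold intervals do not overlap, with a local background of 8.48 reads in replicate 1 and 3.48 reads in replicate 2. The EV peak at Nup205, in EV replicate 2, lay at chr6:35177888-35178156, inside the E2F1 peaks of both replicates. It had a fold of 6.14 (3.67 to 9.75) from 16 reads and rank 87 of 358. The median fold of that list was 4.88. Its summit at Nup205 was 411 bp downstream of the start.

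Nup188, the paralog of Nup205 in the inner ring, was also strongly bound. Its peak had a fold of 31.5 (26.6 to 37.2, 140 reads) in replicate 1 at chr2:30285915-30287418 and of 20.9 (17.6 to 24.6, 141 reads) in replicate 2 at chr2:30285892-30287164. The pileups are nearly equal and the fold intervals do not overlap, with backgrounds of 3.47 and 5.81 reads. The summits were 171 and 74 bp downstream of the start, 153 and 56 bp from the core letters in the promoter, and the same peak lies next to Dolk, which encodes dolichol kinase. Nup155, which contacts the pore membrane, had folds of 16.1 and 18.8. Nup35, another membrane-contacting nucleoporin, had lower folds of 9.13 and 12.2. Nup93, the linker that ties the inner ring to the channel proteins, had a fold of 10.5 (8.13 to 13.3) in replicate 1 and of 7.20 (5.35 to 9.50) in replicate 2, and its percentile was 41.4 in replicate 1 and 75.8 in replicate 2, a gap of 34.4 points.

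The Y complex, the outer-ring scaffold, was bound at 5 of 6 members, with median folds of 16.9 and 18.3. Nup85 had the lowest mean percentile of the complex (8.44), with a fold of 35.4 (30.6 to 40.6, 198 reads) in replicate 1 at chr11:115564152-115565301 and of 25.1 (21.5 to 29.2, 170 reads) in replicate 2 at chr11:115564123-115564996. Nup85 was among the members with a higher fold in replicate 1. Nup160, whose fold in replicate 2 was above that of Nup85, behaved the other way, with a fold of 16.9 (13.2 to 21.3, 68 reads) in replicate 1 and of 44.4 (37.1 to 52.9, 126 reads) in replicate 2, and both its fold and its pileup intervals do not overlap. Its peaks, at chr2:90678044-90679939 and chr2:90678646-90679932, had summits 1955 and 1961 bp downstream of the only listed start, whose promoter was not CpG-rich and had no base in either peak. Nup133 had the largest difference in rank between replicates, with a fold of 6.73 (4.61 to 9.51, 30 reads) in replicate 1 and of 17.4 (13.3 to 22.5, 57 reads) in replicate 2, a gap of 42.5 points. Nup43, a beta-propeller subunit, had folds of 19.2 and 18.3, and Nup107 had folds of 9.06 and 8.52. Nup37, the remaining one of these 6 members and also a beta-propeller protein, had no peak. The nearest peak to it was 178161 bp away in replicate 1 and 178692 bp in replicate 2.

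In the channel and at its faces, Nup62 stood above the rest. Nup62, a phenylalanine-glycine-rich protein of the central channel, had a fold of 22.8 (19.3 to 26.8, 145 reads) at chr7:44816020-44818022 in replicate 1 and of 50.9 (43.7 to 58.9, 176 reads) at chr7:44815916-44817255 in replicate 2. Its summits were 456 and 286 bp downstream of the start, and the peak also lies within 1000 bp of Atf5, a stress-response transcription factor, and of Il4i1b. Nup54, its partner in the channel, had folds of 13.9 and 11.4, while Nup62cl, an X-linked gene related to Nup62, had no peak, with the nearest 135200 and 134959 bp away in replicates 1 and 2. Of the genes grouped here under the cytoplasmic face, Nup98, whose gene also encodes a Y-complex subunit, had folds of 14.8 and 15.3. Nup88 had folds of 11.2 and 10.5. Nup214, the partner of Nup88, had a peak in replicate 2 only, at chr2:31974242-31974822, with a fold of 10.2 (7.14 to 14.2, 33 reads), rank 4478 of 8027 and its summit at −44 bp from the start.

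Both genes of the nuclear basket were bound, and both had higher folds in replicate 2. Nup153, which anchors the basket, had folds of 12.1 and 20.0, and Nup50, which helps importin alpha release its cargo, had folds of 13.2 and 27.3. Neither Nup210 nor Nup210l, which encode the pore membrane glycoprotein and its testis-enriched relative, had a peak. The nearest peaks to Nup210 were 94157 and 94411 bp away in replicates 1 and 2, and those to Nup210l were 8267 and 8302 bp away.

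**Figure D2:**
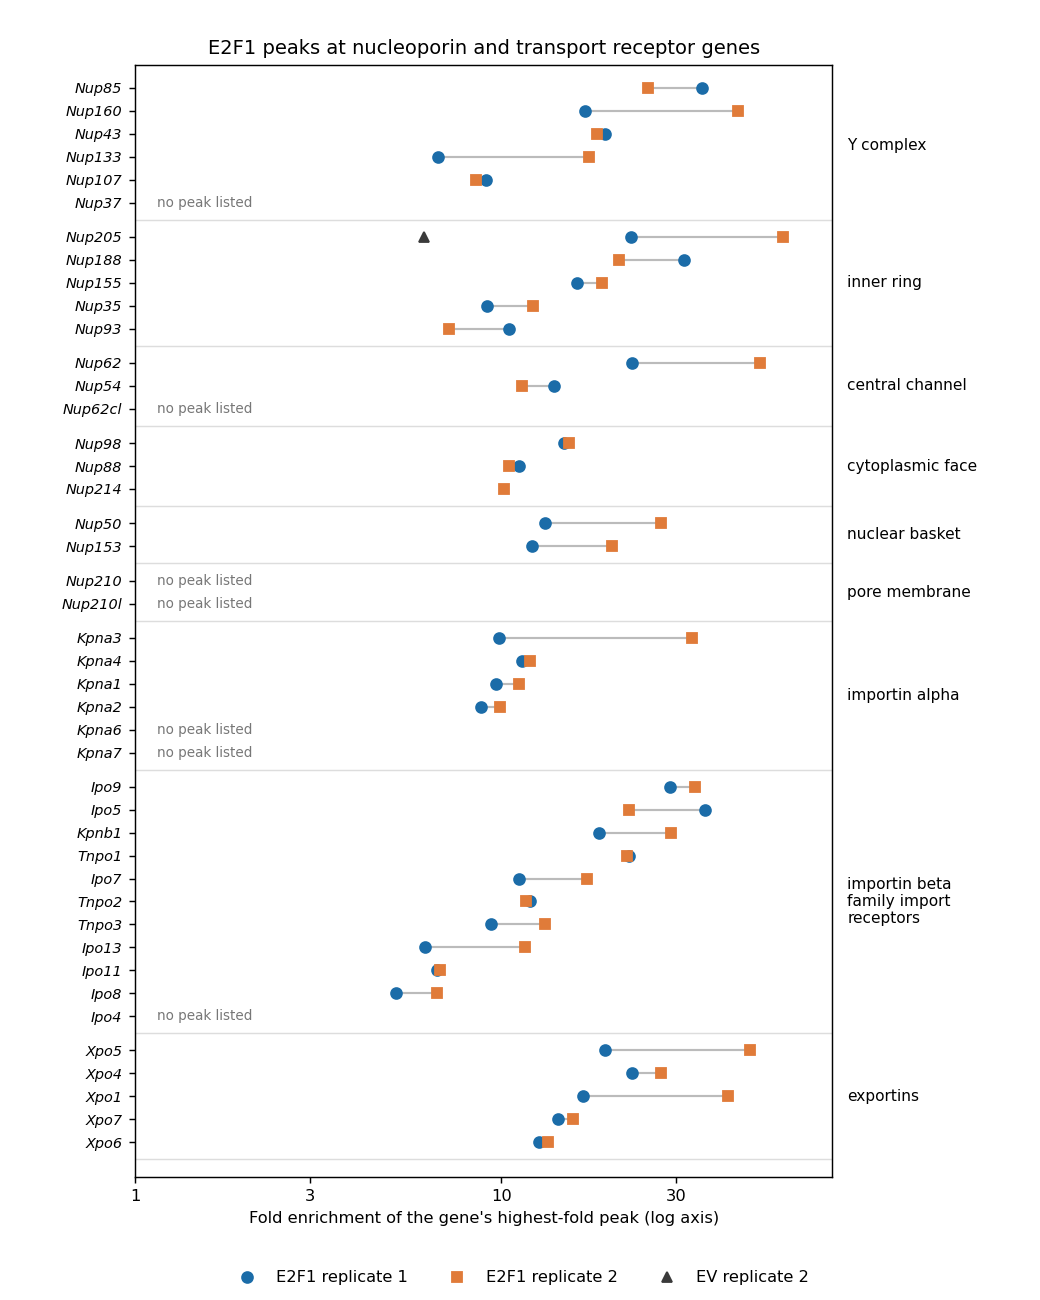
Fold enrichment of the highest-fold peak of each member (log axis), grouped by role and ordered within a role by mean rank, with blue circles for E2F1 replicate 1, orange squares for E2F1 replicate 2 and a grey triangle for EV replicate 2. Nup205 has the only triangle, at 6.14, Nup214 has an orange square alone, and 7 members have no peak in any list.

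The exportins matched by the symbol rule were bound without exception, with median folds of 16.7 and 27.3 over 5 members. Export factors with other names are not in this count. Xpo5, which exports microRNA precursors, was the strongest by mean percentile (7.75), with a fold of 19.2 (15.9 to 23.0, 115 reads) at chr17:46201935-46203178 in replicate 1 and of 47.9 (41.0 to 55.5, 173 reads) at chr17:46201899-46203495 in replicate 2. Its summits were at −153 and −135 bp from the start, between Xpo5 and Polh, which encodes a translesion DNA polymerase. Xpo1, the export receptor for leucine-rich signals, had a fold of 16.7 (13.3 to 20.7, 80 reads) in replicate 1 and of 41.5 (34.9 to 49.0, 137 reads) in replicate 2, at chr11:23254899-23257846 and chr11:23254985-23257025, with summits at −651 and −633 bp from the start, upstream of it. For Xpo5 and Xpo1 neither the fold intervals nor the pileup intervals of the replicates overlap. The fold intervals hold the local background fixed, and library totals were not used for the pileups. Xpo4 had a fold of 22.8 (18.4 to 27.9, 92 reads) at chr14:57664392-57665640 and of 27.3 (21.6 to 34.0, 77 reads) at chr14:57664710-57665472, values whose intervals overlap, and its fold in replicate 1 was above that of Xpo5. Its summits lay 3175 and 3121 bp inside the gene from its nearer boundary, and its strand was not listed. Xpo7 had folds of 14.3 and 15.7, again with summits inside the gene (4508 and 4513 bp from a boundary), and Xpo6, which exports actin, had folds of 12.7 and 13.4.

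Import receptors of the importin beta family were bound at 10 of 11 members, with folds from 5.15 to 35.9 in replicate 1 and from 6.69 to 33.7 in replicate 2. Ipo9, a carrier of histones, was strong in both replicates, with a fold of 28.9 (23.9 to 34.6, 117 reads) at chr1:135429111-135431093 and of 33.7 (28.7 to 39.2, 163 reads) at chr1:135429673-135431004, and summits 49 and 27 bp downstream of the nearest start. Ipo5, which imports ribosomal proteins among other cargo, had a fold of 35.9 (29.4 to 43.4, 104 reads) at chr14:120910346-120911819 in replicate 1 and of 22.3 (18.2 to 27.1, 99 reads) at chr14:120910306-120911875 in replicate 2. The Ipo5 summits were 13894 and 13955 bp inside the annotated gene but at −460 and −399 bp, upstream, from a start listed within it. Kpnb1, importin beta itself, had folds of 18.5 and 29.0, and its summits fell on either side of the start, at 439 bp, downstream, in replicate 1 and at −564 bp, upstream, in replicate 2. These overlapping, broad peaks had the largest distance between replicate summits of any member whose highest peaks overlapped, 1003 bp.

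Tnpo1, transportin 1, a carrier of RNA-binding proteins, had 2 peaks in each list. The peak at its upstream start (summits at 98926546 and 98926520 on chromosome 13) had folds of 8.93 and 22.0. In both lists this upstream peak also lay inside or within 1000 bp of another protein-coding gene, Gm52051. The peak at an internal start (summits at 98890547 and 98890552) had folds of 22.3 and 19.9. The highest-fold peak of Tnpo1 therefore differed between replicates, although both peaks were in both lists. Ipo7, an importer of ribosomal proteins and the bound member with an 8-letter motif, had folds of 11.2 and 17.1, with summits 154 and 156 bp from that motif. Tnpo2, the close relative of Tnpo1, had folds of 12.0 and 11.7, and Tnpo3, the carrier of splicing factors rich in serine and arginine, had folds of 9.37 and 13.2.

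The weakest bound members were also import receptors of this family. Ipo8 had a fold of 5.15 (3.53 to 7.29, 30 reads) at chr6:148831088-148831449 and of 6.69 (4.55 to 9.51, 29 reads) at chr6:148831070-148831706. Ipo11 had a fold of 6.68 (4.68 to 9.25, 34 reads) at chr13:106936411-106937248 and of 6.79 (4.56 to 9.77, 27 reads) at chr13:106936433-106937110. For both genes the intervals of the replicates overlap. Ipo13, which carries cargo in both directions, had a fold of 6.20 (4.67 to 8.07, 53 reads) in replicate 1 at chr4:117915005-117915995 and of 11.6 (9.07 to 14.6, 69 reads) in replicate 2 at chr4:117914859-117915489, and these intervals do not overlap. Ipo4, another carrier of histones, had no peak, with the nearest 7112 and 7176 bp away.

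The importin alpha genes, which encode the adaptors for the classical localization signal, had peaks in both lists at 4 of 6 members and the lowest median folds of the bound roles, 9.77 in replicate 1 and 11.6 in replicate 2. Kpna3 had a fold of 9.84 (7.58 to 12.6, 62 reads) in replicate 1 at chr14:61438860-61440301 and of 33.2 (26.9 to 40.6, 94 reads) in replicate 2 at chr14:61439263-61440439. This was the largest log2 ratio of replicate 2 over replicate 1 among the members, 1.76, and its local background was 5.40 reads in replicate 1 and 1.86 reads in replicate 2. The other bound importin alpha genes were more even: Kpna4 had folds of 11.4 and 12.0, Kpna1 of 9.69 and 11.2, and Kpna2, which is abundant in dividing cells, of 8.81 and 9.89. Kpna6 had no peak, with the nearest 2802 and 2733 bp away, and Kpna7, known from oocytes and early embryos, had none, with the nearest 17575 and 17480 bp away.

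The replicates ranked the bound members alike in the main. Across the 35 members Spearman's rho between replicates was 0.75 for fold, against 0.71 over all 7537 bound genes, and 0.78 for pileup, against 0.87. These are correlations across genes that share the same libraries, and genes are not independent replicates. The fold was higher in replicate 2 at 25 members (71.4%, against 70.9% of all bound genes), with a median log2 ratio of 0.22 against 0.34. The pileup had a median log2 ratio of −0.02, against 0.00 over all bound genes. The local background had one of −0.53, against −0.41 over all bound genes. This background was solved from fold and −log10 p, so it was not measured apart from the fold. The fold intervals of the replicates did not overlap for 14 of 35 members, 11 of them higher in replicate 2, and for 2223 of 7537 bound genes, 2006 of them higher in replicate 2. The pileup intervals did not overlap for 6 of 35 members (Nup160, Nup133, Xpo1, Nup50, Kpna1 and Xpo5) and for 520 of 7537 bound genes. The part of the background in these differences was not tested further.

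**Figure D3:**
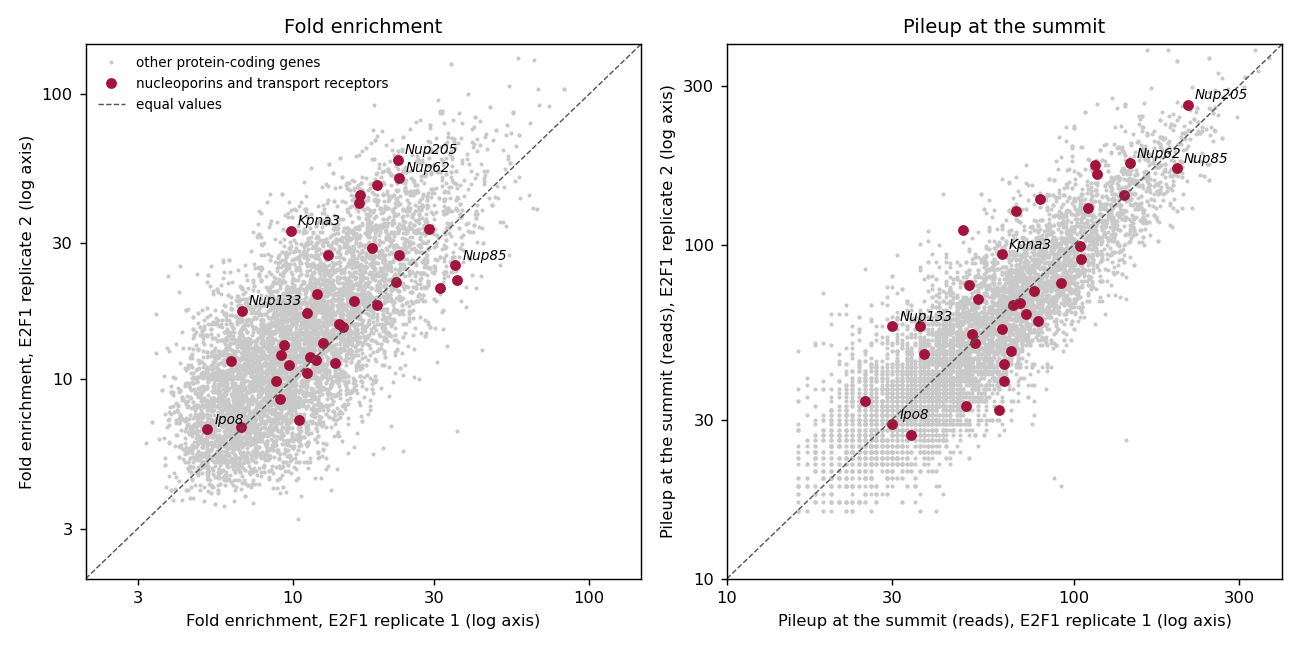
Fold enrichment (left) and pileup in reads at the summit (right) of each gene's highest-fold peak in E2F1 replicate 1 (horizontal) and replicate 2 (vertical), on log axes, for the 35 bound members (red) and other protein-coding genes (grey); the dashed line marks equal values. In the left panel 25 of the 35 red points lie above the line, whereas in the right panel they lie around it; 1 gene in the left panel and 3 in the right, none of them members, are outside the axes.

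The peaks sat near gene starts, as did those of bound genes in general. For the 28 bound members with a listed start and strand, the summit was a median of 180 bp from the nearest start in replicate 1 and 149 bp in replicate 2, against 189 and 148 bp for all bound genes. It lay within 500 bp of a start at 25 members in replicate 1 (89.3%, against 84.7% of all bound genes) and 24 in replicate 2 (85.7%, against 85.1%). It was downstream of the start at 21 (75.0%, against 69.5% of all bound genes) and 19 (67.9%, against 61.8%). The summit was inside the 300-base promoter window at 4 members in replicate 1 (14.3%, against 21.4% of all bound genes) and 7 in replicate 2, against 35.8% of all bound genes, so the sequences above hold the flank of most peaks rather than the summit. For Nup98, Tnpo2 and Tnpo1, which each have a pair of listed starts, the start nearest the summit of the highest-fold peak differs between replicates. The highest-fold peaks of the replicates overlapped at 34 of 35 members, all but Tnpo1, and the summits lay within 100 bp of each other at 25, with a median distance of 43.5 bp. The peaks had a median width of 1249 bp in replicate 1 and 1003 bp in replicate 2, against 1012 and 889 bp for all bound genes.

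**Figure D4:**
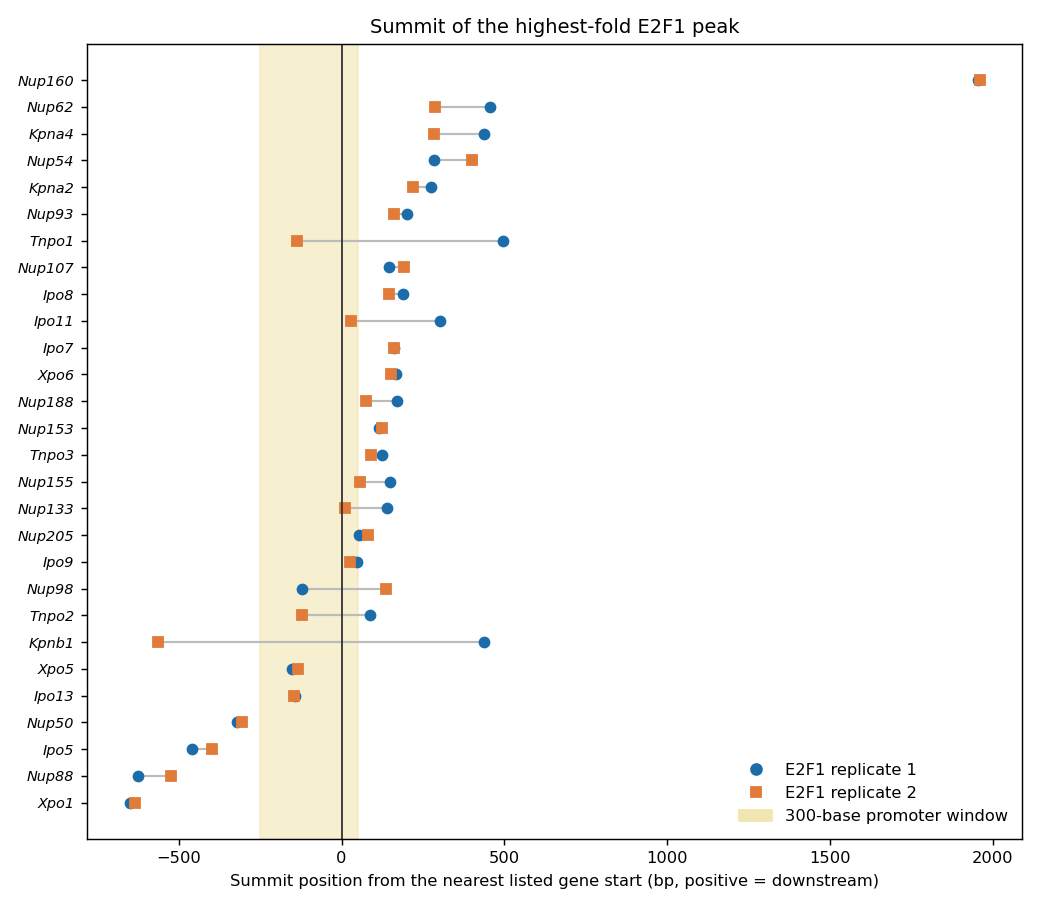
Distance in bp from the nearest listed gene start to the summit of the highest-fold E2F1 peak (positive is downstream), for the 28 bound members with a listed strand, with blue circles for replicate 1 and orange squares for replicate 2. The shaded band is the 300-base promoter window; most summits lie within 500 bp of the start, and the Nup160 pair lies furthest downstream, at 1955 and 1961 bp.

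Some of these peaks cannot be assigned to a single gene. At 7 bound members (20.0%, against 29.9% of all bound genes) the highest-fold peak in both lists was also inside or within 1000 bp of another protein-coding gene. These were Nup188 with Dolk, Nup62 with Atf5 and Il4i1b, Xpo5 with Polh, Nup43 with Pcmt1 (a protein-repair methyltransferase), Nup88 with Rpain (an interactor of replication protein A), Nup98 with Pgap2 and Xpo7 with Dok2. With such peaks left out, 28 members, or 65.1%, kept a peak in both lists, against 24.2% of all genes. At the authors' scores of at least the list median, 25 members, or 58.1%, did so, against 17.1% of all genes.

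Genes of the same machinery with other names had a peak in both lists at 43 of 58, or 74.1% (61.6 to 83.7), against the 34.4% of all genes. Over all genes with a CpG-rich promoter the share was 61.8%. The promoter class and length of the related genes are not given here, and their part in this share was not tested. The difference from the members' share was not tested either. Among other pore proteins 8 of 12 had a peak in both lists, including Tpr of the nuclear basket (folds 19.4 and 42.7), the Y-complex subunit Seh1l (22.0 and 37.4) and Ranbp2 of the cytoplasmic filaments (7.80 and 29.8), which are named for their places in the pore after their values were seen. Gle1, Nupl2 and Rae1 had a peak in replicate 2 only, and Sec13, which also coats vesicles, had none. In the Ran cycle and among other transport factors 12 of 16 were bound. Rcc1, the exchange factor that charges Ran in the nucleus, had folds of 39.9 and 48.6, and Ran itself had folds of 49.2 and 43.3, both above those of every member in replicate 1. Nxt2 had a peak in replicate 2 only, and Ranbp17, Rangrf and Snupn had none.

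The nuclear envelope and lamina genes had the highest median folds of these lists of related genes. Of 16 genes 14 had a peak in both lists, with median folds of 18.9 and 24.5. Lmnb1, lamin B1, had folds of 56.5 and 65.8 and was the only one of the related genes with an EV peak, of fold 13.3 in EV replicate 2. Tmpo, which encodes lamina-associated polypeptide 2, had folds of 37.1 and 70.0, and Lbr, the lamin B receptor, of 34.6 and 56.0. Chmp7 had a peak in replicate 2 only and Syne1 had none. Of the mRNA export genes 9 of 14 were bound, while Thoc2 and Mcm3ap had a peak in replicate 1 only, Thoc1 in replicate 2 only, and Ddx19b and Thoc5 had none.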

How the data were processed

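ChIP-seq peak lists of 2 E2F1 and 2 EV libraries of NIH/3T3 cells were used, grouped by the sample titles. Per the submitters' processing notes the tools included FastQC, Trimmomatic, Bowtie2, MACS2 and ChIPseeker, with build mm10; versions, antibody and control are not given in the sources used here, since the extraction protocol in the labels describes RNA. Each deposited list has 10 columns of the narrowPeak layout. The deposited score is a whole number, equal to 10 times the −log10 q rounded down. Fold enrichment, as deposited, gives the ratio between the pileup at the summit and its local background. The deposited −log10 p and −log10 q values were used as the authors gave them. Every list had a smallest −log10 p just above 10, and the lists were taken as called per sample.

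Pileup and background were solved from fold and −log10 p, with fold as pileup plus 1 over background plus 1 and p as a Poisson upper tail. A whole-number pileup within 5% of a step was found for 95.71% to 99.99% of peaks per list. Fold intervals are exact Poisson 95% intervals of the pileup at a fixed background, shares have Wilson intervals, and both cover counting error only.

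Gene positions, starts, strand and promoters came from RefSeq tables of GRCm38.p6, the assembly of mm10. All 43 members matched by symbol, 34 of them with a promoter. Left out were 13 mitochondrial genes. The planned comparison of paralogous protein sequences was not run. A further list of related genes is not reported here and is in no count of them. The scripts were tested on simulated data. Software was Python 3.11.15, pandas 2.3.3, numpy 2.4.6, SciPy 1.17.1 and matplotlib 3.10.9.

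Named with full values were the 10 strongest and 3 weakest bound members by mean percentile, those in 1 list, those with an EV peak and the 3 with the largest rank gaps; members without a peak are named, as are the 5 strongest related genes and those without a peak. Promoters shown were those of the 4 bound members with a motif that had the lowest mean percentiles, and 2 without a peak. Members and lists were chosen with earlier results of these data known. Alternatives were other windows, summits, stricter scores, starts only, unshared peaks, ranks by score, other motifs and leaving out each library.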

Additional observations from a re-analysis of the deposited data

How the results depend on the processing

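The share of members with a peak in both lists, 81.4%, moved to 58.1% with scores at or above the list median and to 65.1% without peaks shared with another gene. It was 81.4% with narrower and wider windows, with summits in place of intervals and with overlapping peaks required, and 74.4% with gene starts only, where Nup160, Xpo4 and Xpo7 had none. Leaving out an E2F1 replicate gave 81.4% to 83.7%. The related genes' share, 74.1%, moved to 58.6% with the stricter scores and was 77.6% to 84.5% without an E2F1 replicate. The median percentile, 28.8, was 28.7 ranked by score and 27.7 to 29.1 without a replicate. Leaving out an EV replicate put the difference in members with a peak, 35.0 genes, at 34.5 to 35.5. The 8-letter motif share was 4.88%, 14.6% with the cores and 3.12% over promoter bases within a peak.

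With the replicate number as a block, an alternative chosen after seeing the data, the difference in members with a peak was 35 in each pair of libraries, a mean of 35.0; the labels do not say that equal numbers pair the libraries, and 2 pairs allow no exact two-sided p below 0.5. Peaks weaker than the authors' limit, the unknown library totals and 2 libraries per group limit what these lists can show.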
